A study of Nicotiana tabacum with 6 samples.

Results

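The 5 genes described here are ACRE1 (ncbi_107769990), ACRE111B (ncbi_107808010), ACRE231 (ncbi_107788719), KED (ncbi_107827770) and WIPK (ncbi_107821857). They were taken by gene number from a table of 68476 loci. All 5 were among the 40725 loci that averaged 0.5 FPKM or more over the 6 libraries, FPKM being the fragments of a transcript scaled by its length and by the mapped fragments of the library. They had been chosen by their FPKM in these 6 libraries, so those levels are given as a description and carry no test. Poly(A) RNA from mature leaves of tobacco (Nicotiana tabacum) had been sequenced in 6 libraries, 3 labelled OE-NtispH, from plants overexpressing NtispH, and 3 labelled WT, from wild-type plants grown in the same conditions. No treatment, wounding or elicitor is named for any library. The sources used here name neither the promoter of the transgene nor the number of lines or of plants per library. Errors and p-values therefore describe how far these 6 libraries differ, and part or all of that may be technical.

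Plants read an attack or an injury within minutes. Receptors and damaged cells set off calcium influx, an oxidative burst and mitogen-activated protein (MAP) kinase cascades, and a wave of rapidly induced transcripts follows. ACRE stands for Avr9/Cf-9 rapidly elicited: these genes were found in tobacco cells carrying the tomato resistance gene Cf-9 soon after contact with Avr9, an effector of the leaf mould fungus, and several of them also respond to wounding. WIPK is the wound-induced protein kinase of tobacco, a MAP kinase whose transcript and activity both rise after wounding and during resistance responses. KED was found as a wound-induced tobacco transcript, and its name gives the lysine, glutamate and aspartate residues in which its protein is rich.

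The libraries did not follow their labels at the overexpressed gene. ISPH (LOC107760258), the gene that NtispH names, had 2761, 684.6 and 853.7 FPKM in the libraries labelled OE-NtispH replicates 1, 2 and 3, against 108.2, 3038 and 558.6 FPKM in those labelled WT replicates 1, 2 and 3. The highest value lay in a library labelled WT, so every library below is called by its label only. Relative depth, read from the commonest ratio of low values, was 1.02, 1.03 and 1.06 in OE-NtispH replicates 1 to 3 and 1.13 and 1.17 in WT replicates 2 and 3, against WT replicate 1. Read counts cannot be had from FPKM. Mesophyll markers were abundant in every library, with a sum over 6 loci of 4967 to 6836 FPKM in the libraries labelled OE-NtispH and 8546 to 9821 FPKM in those labelled WT. The 3 trichome marker loci, NtPDR1, NtABS and CYP71D20, summed to 127.2 to 252.5 FPKM in OE-NtispH and 141.5 to 217.5 FPKM in WT. CYP71D20 is also in the elicitor list below, and it gave 92.5 of the 217.5 FPKM in WT replicate 3. NtPDR1 and NtABS were at 115.7 and 9.24 FPKM in that library, so the sum does not measure trichome content alone. Of 8 root marker loci, 5 were listed at 0 in every library, among them PMT2 and A622 of nicotine synthesis. The others were present in every library, qpt2 at 16.5 to 37.6 FPKM, qpt1 at 3.38 to 7.33 FPKM and BBLa at 0.035 to 0.589 FPKM. The sum over the 8 loci was 20.0 to 44.9 FPKM in OE-NtispH and 36.0 to 38.9 FPKM in WT, most of it from qpt2. The part of these differences in the results below was not tested.

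All 5 genes were highest in the library labelled WT replicate 3. The ACRE genes shared 1 order of libraries, with WT replicate 2 in second place, whereas in KED and WIPK OE-NtispH replicate 1 came second. WT replicate 1 was the lowest library for 4 of the 5 genes. In bulk leaf RNA, fewer cells that hold a transcript and less of it per cell cannot be told apart.

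ACRE1 was at 11.4, 3.16 and 0.444 FPKM in the libraries labelled OE-NtispH replicates 1, 2 and 3, against 0.376, 18.8 and 70.1 FPKM in WT replicates 1, 2 and 3. The libraries labelled WT thus held both the highest and the lowest value, and every OE-NtispH value lay between them. The highest library exceeded the lowest 186-fold, and WT replicate 3 alone carried 67.2% of the FPKM summed over the 6 libraries.

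ACRE111B was at 3.84, 0.772 and 0.160 FPKM in OE-NtispH replicates 1, 2 and 3, against 0.057, 8.43 and 68.4 FPKM in WT replicates 1, 2 and 3. This was the widest range of the 5 genes on the log2(FPKM + 1) scale, 6.04, and WT replicate 3 carried 83.8% of the summed FPKM. The value of 0.057 FPKM may rest on very few fragments, so the ratio of 1200 between the highest and the lowest library is poorly determined.

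ACRE231 was at 2.76, 0.912 and 0.042 FPKM in OE-NtispH replicates 1, 2 and 3. In the libraries labelled WT it was listed at 0 in replicate 1 and was at 4.81 and 36.1 FPKM in replicates 2 and 3. No fold is given against the value of 0. WT replicate 3 carried 80.9% of its summed FPKM and was 7.50 times WT replicate 2.

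The 3 ACRE genes kept the same descending order, WT replicate 3, WT replicate 2, OE-NtispH replicates 1, 2 and 3, WT replicate 1. This exact order was found in 123 of the 40725 tested loci, or 0.302%. The libraries labelled OE-NtispH differed widely among themselves as well. OE-NtispH replicate 1 was 25.8 times OE-NtispH replicate 3 for ACRE1 and 24.0 times for ACRE111B, and 3.63 and 4.97 times OE-NtispH replicate 2. The genes did not keep one ratio to each other: ACRE111B stood at 0.335, 0.245 and 0.360 of the ACRE1 level in OE-NtispH replicates 1, 2 and 3, and at 0.152, 0.449 and 0.976 of it in WT replicates 1, 2 and 3. ACRE111B thus reached the FPKM of ACRE1 in the library labelled WT replicate 3 and lay well below it in the other 5.

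KED was at 15.2, 12.1 and 2.12 FPKM in the libraries labelled OE-NtispH replicates 1, 2 and 3, against 3.03, 5.33 and 56.8 FPKM in WT replicates 1, 2 and 3. It shared the high value in WT replicate 3 with the ACRE genes, but OE-NtispH replicates 1 and 2 both stood above WT replicate 2. Its lowest library was OE-NtispH replicate 3, and the highest exceeded the lowest 26.8-fold. The ratio of KED to ACRE1 was 1.33, 3.83 and 4.77 in OE-NtispH replicates 1, 2 and 3, and 8.05, 0.284 and 0.810 in WT replicates 1, 2 and 3, so KED was the higher of the 2 genes in 4 libraries and ACRE1 in WT replicates 2 and 3.

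WIPK was at 29.8, 19.1 and 20.9 FPKM in OE-NtispH replicates 1, 2 and 3, against 14.0, 17.3 and 54.6 FPKM in WT replicates 1, 2 and 3. It was the only gene of the 5 that stayed above 10 FPKM in every library. Its highest library exceeded its lowest 3.90-fold, and WT replicate 3 was 1.83 times the next library, OE-NtispH replicate 1. In the libraries labelled OE-NtispH replicate 3 and WT replicate 1, where the ACRE genes were below 0.5 FPKM, the FPKM of WIPK was 47.1 and 37.2 times that of ACRE1.

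**Figure D1:**
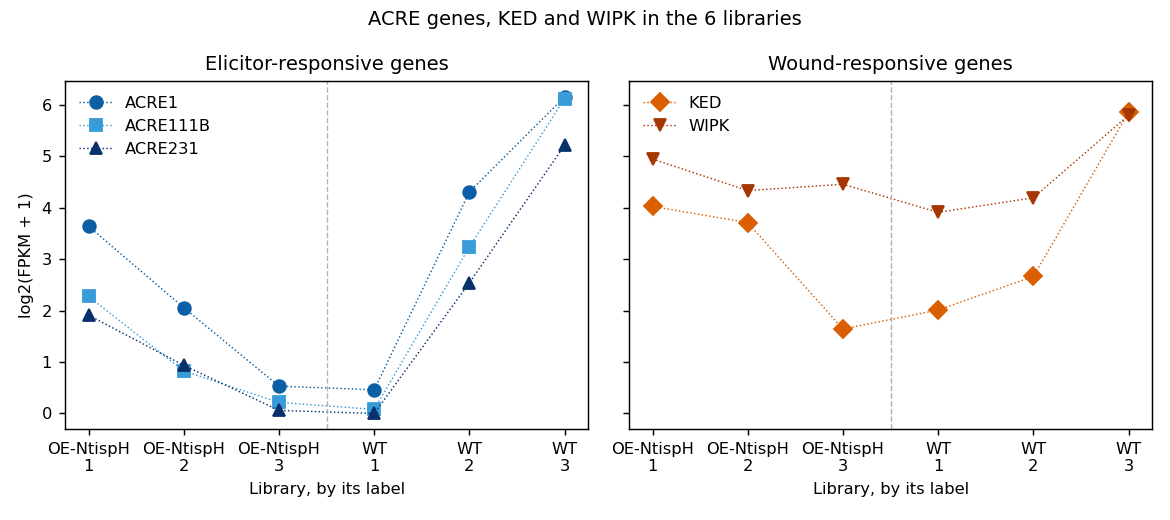
Levels of ACRE1, ACRE111B and ACRE231 (left) and of KED and WIPK (right) as log2(FPKM + 1) in each library, with the libraries labelled OE-NtispH left of those labelled WT; dotted lines join the values of one gene and imply no order of replicates. All 5 genes peak in WT replicate 3 (5.21 to 6.15), the ACRE genes lie near 0 in OE-NtispH replicate 3 and WT replicate 1, and WIPK stays between 3.91 and 5.80.

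The 3 ACRE genes differed from KED and WIPK in the pair of libraries below the top. WT replicate 2 stood at 1.64, 2.20 and 1.74 times OE-NtispH replicate 1 for ACRE1, ACRE111B and ACRE231, and at 0.350 and 0.580 times it for KED and WIPK. Over all tested loci WT replicate 2 was higher than OE-NtispH replicate 1 in 34.9%, and the median ratio was 0.850. The order did not follow the name of the class beyond these 5 genes: of the other 8 ACRE genes WT replicate 2 was above OE-NtispH replicate 1 in 4, and second of all libraries in 3. Both orders were common among loci with a peak in the same library. WT replicate 3 was at least 2 times the next library in 637 loci (1.56%), a fold chosen after the values were seen, and in these the second library was WT replicate 2 in 313 (49.1%) and OE-NtispH replicate 1 in 226 (35.5%). WT replicate 1 was the lowest library in 334 of them (52.4%), against 14.0% of all tested loci.

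The ranges also fell into the order of the classes. Over the 6 libraries the log2(FPKM + 1) range was 5.69, 6.04 and 5.21 in ACRE1, ACRE111B and ACRE231, 4.21 in KED and 1.89 in WIPK, while the median of all tested loci was 0.64. A range at least as wide was found in 14, 8 and 30 loci for the ACRE genes, in 88 for KED and in 1385 (3.40%) for WIPK, each gene counting itself. Within the libraries labelled OE-NtispH the ranges were 3.11, 2.06, 1.85, 2.38 and 0.61 for ACRE1, ACRE111B, ACRE231, KED and WIPK. Within those labelled WT they were 5.69, 6.04, 5.21, 3.84 and 1.89. On this scale KED varied more than ACRE111B and ACRE231 among the OE-NtispH libraries and less than any ACRE gene among the WT libraries. WIPK was the narrowest in both groups. The ranking of KED among the OE-NtispH libraries depends on the 1 added before the log, which shrinks differences among low values. As a plain ratio of FPKM, OE-NtispH replicate 1 over replicate 3 was 7.20 for KED, 24.0 for ACRE111B and 65.7 for ACRE231. For WIPK, 22.3% of all tested loci varied at least as much among the OE-NtispH libraries, and 1.34% among the WT libraries.

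**Figure D2:**
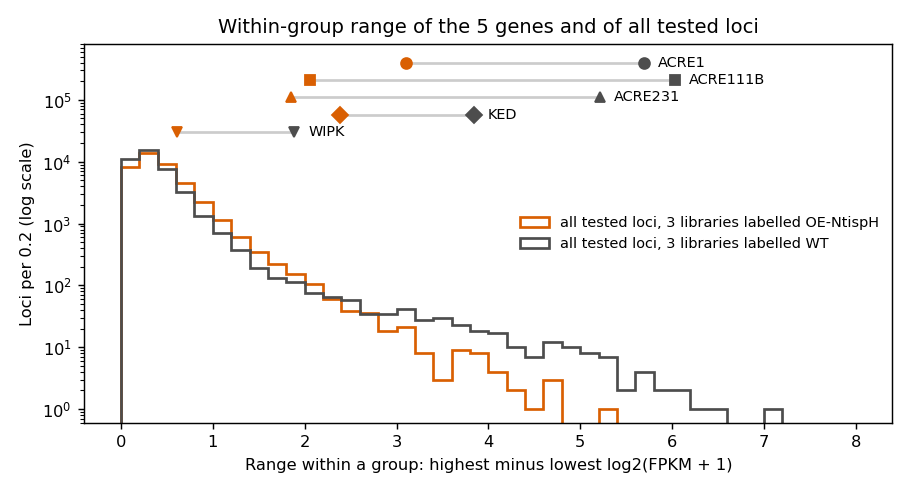
Range within the 3 libraries labelled OE-NtispH (orange) and the 3 labelled WT (grey), as highest minus lowest log2(FPKM + 1); steps count all 40725 tested loci per 0.2 on a log axis and symbols mark the 5 genes, at heights without meaning. The medians of all loci are 0.37 in OE-NtispH and 0.31 in WT, and each of the 5 genes has its wider range among the WT libraries.

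Between the groups as labelled, the mean log2(FPKM + 1) of ACRE1 was 2.07 in OE-NtispH and 3.64 in WT, a difference of -1.56 ± 1.90 (SE, n = 3 each). For ACRE111B the means were 1.10 and 3.14 (difference -2.04 ± 1.85), and for ACRE231 0.97 and 2.58 (difference -1.62 ± 1.60), OE-NtispH first in each pair. KED had means of 3.12 in OE-NtispH and 3.51 in WT (difference -0.38 ± 1.40), and WIPK 4.58 and 4.63 (difference -0.06 ± 0.62). For ACRE1 and WIPK the difference is smaller than its own standard error, as it is for KED, and for ACRE111B and ACRE231 it is about as large as that error. The values of the groups overlapped in all 5 genes, while they did not overlap in 32.5% of the tested loci. Without WT replicate 3 the differences were -0.31, -0.55 and -0.30 for ACRE1, ACRE111B and ACRE231, and 0.79 and 0.53 for KED and WIPK. The sign for KED also turned without OE-NtispH replicate 3 (0.36), and that for WIPK without OE-NtispH replicate 2 or 3 (0.07 and 0.01). In FPKM the group means were 5.01 ± 5.73 in OE-NtispH and 29.7 ± 36.1 in WT for ACRE1, and 23.3 ± 5.70 in OE-NtispH and 28.6 ± 22.5 in WT for WIPK (SD, n = 3 each).

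Profiles were compared by the root-mean-square difference of log2(FPKM + 1) over the 6 libraries, after centring each gene on its own mean. It was 0.51 between ACRE1 and ACRE111B, 0.53 between ACRE1 and ACRE231, and 0.35 between ACRE111B and ACRE231. Between an ACRE gene and KED it was 0.90 to 1.23, and between an ACRE gene and WIPK 1.32 to 1.64. KED lay 0.93 from WIPK and 0.90 from ACRE231 on this scale. The 1 added before the log shrinks differences among low values, such as the 0 and 0.042 FPKM of ACRE231. Distances were not computed with a smaller added value, so whether KED and WIPK form a pair is not settled by this measure. The measure counts amplitude as well as order: the centred profile of WIPK departs from a flat line by 0.62, and that of ACRE1 by 2.06.

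Among 833 named loci averaging 2 FPKM or more, the nearest to ACRE1 was NtERF4 (LOC107790518), for a transcription factor of the ethylene response factor family, at a distance of 0.18. NtERF4 was at 13.7, 3.66 and 1.39 FPKM in OE-NtispH replicates 1, 2 and 3, against 0.713, 26.7 and 88.3 FPKM in WT replicates 1, 2 and 3, which is the ACRE order of libraries. Loci chosen by nearness of profile are likely to share the peak and much of the order, so such likeness is no separate result. MMP1 (LOC107768721), for a matrix metalloproteinase, was nearest to both ACRE111B (0.30) and ACRE231 (0.31). It had 10.3, 1.89 and 1.55 FPKM in OE-NtispH replicates 1, 2 and 3, against 1.26, 14.7 and 88.5 FPKM in WT replicates 1, 2 and 3. JEI1 (LOC107814828) was as near to ACRE231 (0.31), and the other places among the 3 nearest to an ACRE gene were held by ACRE111B, ACRE231, MMP1 and NtERF4.

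KED and WIPK had other neighbours than the ACRE genes by this measure. Nearest to KED was NtERF3 (LOC107778042), another ethylene response factor gene, at 0.50, with 16.8, 7.88 and 3.08 FPKM in OE-NtispH replicates 1, 2 and 3 and 3.66, 6.26 and 27.6 FPKM in WT replicates 1, 2 and 3. WRKY3 (LOC107780047) and NtERF3b (LOC107814796) followed at 0.58 and 0.62. Like KED, NtERF3 stood higher in OE-NtispH replicates 1 and 2 than in WT replicate 2. Nearest to WIPK was WRKY8 (LOC107766079), for a WRKY transcription factor, at 0.11. WRKY8 was at 65.6, 47.7 and 46.3 FPKM in OE-NtispH replicates 1, 2 and 3, against 29.1, 38.4 and 102.8 FPKM in WT replicates 1, 2 and 3. ACRE276, which encodes a U-box ubiquitin ligase, and acs2 (LOC107829216), for the ethylene synthesis enzyme ACC synthase, came next at 0.29 and 0.30, but 218 and 248 loci of any kind were nearer than these. Each of the genes named in these comparisons was highest in the library labelled WT replicate 3, which largely follows from choosing them by nearness to genes with that peak.

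**Figure D3:**
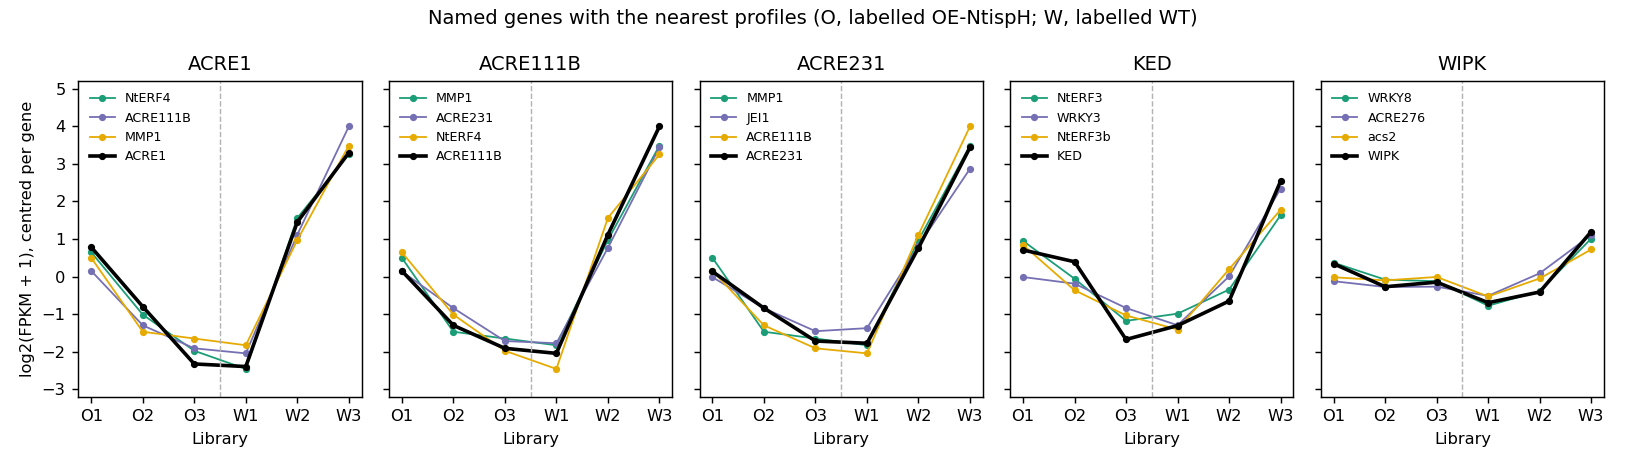
For each of the 5 genes (black), the 3 named loci with the nearest profile, as log2(FPKM + 1) centred on the mean of each gene over the 6 libraries (O1 to O3, labelled OE-NtispH; W1 to W3, labelled WT); lines join the values of one gene. WT replicate 2 lies above OE-NtispH replicate 1 in the panels of the ACRE genes and below it for KED, WIPK, NtERF3, NtERF3b, WRKY8 and acs2, but above it for WRKY3 in the panel of KED and for ACRE276 in that of WIPK.

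The table holds 8 more ACRE genes, taken by name with earlier results of these data known, and 7 of them were also highest in WT replicate 3, against 13.1% of all tested loci. ACRE284, ACRE74 and ACRE132 reached the mean of 0.5 FPKM needed for testing only through WT replicate 3. The comparison with tested loci is therefore partly set by that library. ACRE284 (LOC107825830) was at 0.241, 0.080 and 0.309 FPKM in OE-NtispH replicates 1, 2 and 3, against 0.287, 1.02 and 10.4 FPKM in WT replicates 1, 2 and 3. ACRE74 (LOC107810126), for a U-box protein, was at 0.571, 0.396 and 0.330 FPKM in OE-NtispH and at 0.117, 0.104 and 4.01 FPKM in WT. In both genes WT replicate 3 was at least 7 times every other library. ACRE31 (LOC107804570), for a calcium-binding protein, was at 13.2, 6.33 and 4.40 FPKM in OE-NtispH and at 2.88, 8.46 and 21.6 FPKM in WT. OE-NtispH replicate 1 came second there, as it did for KED and WIPK.

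The remaining ACRE genes varied less. ACRE276 (LOC107830531) was at 4.66, 4.09 and 4.12 FPKM in OE-NtispH replicates 1, 2 and 3, against 3.32, 5.55 and 12.3 FPKM in WT replicates 1, 2 and 3. ACRE132 (LOC107790699), for a RING finger protein, reached only 1.23 FPKM, in WT replicate 3. ACRE216 (LOC107762565) lay between 1.57 and 2.27 FPKM in OE-NtispH and between 1.18 and 2.97 FPKM in WT, and was the one other ACRE gene with the exact order of ACRE1. ACRE141 (LOC107812552) lay between 2.76 and 3.52 FPKM in OE-NtispH and between 2.81 and 4.08 FPKM in WT. ACRE271 (LOC107824781), also named TAP46 for a protein that binds type 2A phosphatases, was the exception, with 9.81 to 11.4 FPKM in OE-NtispH and 6.89 to 8.53 FPKM in WT.

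Of these 8 genes, 0 passed the test between the groups (limma with Benjamini-Hochberg adjustment at 0.05 over all tested loci), where 1.81% of all tested loci passed, and 1 had an unadjusted p under 0.05. That gene was ACRE271, with a log2 change of 0.42 ± 0.13 (SE, n = 3 each; limma, adjusted p = 0.0929) and no overlap between the groups. The log2 change was below 0 in the other 7, for example -1.36 ± 0.83 in ACRE284 (SE, n = 3 each; limma, adjusted p = 0.352). The median of the 8 was -0.21, against 0.13 over all tested loci.

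**Figure D4:**
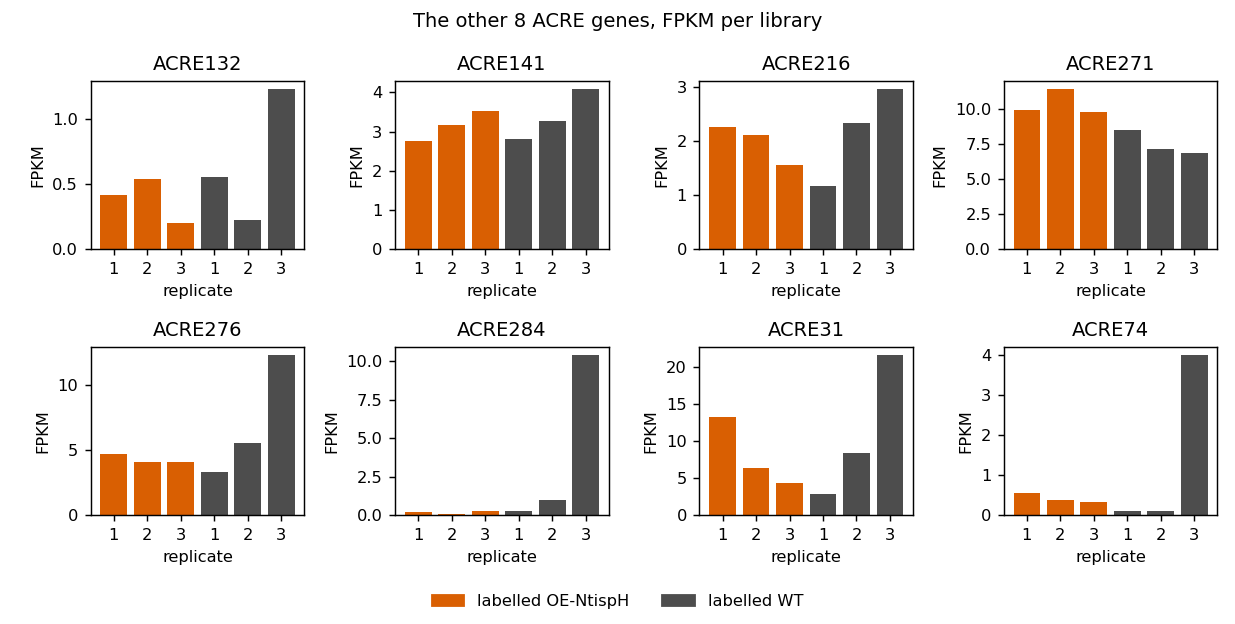
FPKM of the 8 ACRE genes outside the 5, per library, with replicates 1 to 3 labelled OE-NtispH (orange) left of replicates 1 to 3 labelled WT (grey); each panel has its own axis from 0. WT replicate 3 is the highest bar in every panel but that of ACRE271, and in 4 panels (ACRE74, ACRE132, ACRE276 and ACRE284) it is at least 2 times the next.

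Most genes of the MAP kinase cascade had their peak in another library than WIPK. Of 21 loci tested in this list 3 were highest in WT replicate 3, a share near that of all loci, or 2 of 19 without a pair of flavonoid hydroxylase genes that matched the list by letters only. Those 2 were MEK2 (LOC107771019), the tobacco kinase that activates both WIPK and SIPK, and a locus named MAPKK or MKK4 (LOC107765244), both named here after their values were seen. MEK2 was at 12.9, 11.2 and 10.8 FPKM in OE-NtispH replicates 1, 2 and 3, against 7.60, 11.5 and 15.3 FPKM in WT replicates 1, 2 and 3. It shared the highest and the lowest library with WIPK, over a much narrower range. SIPK (LOC107783427), the salicylic acid-induced MAP kinase that acts beside WIPK, was at 17.5, 15.9 and 19.7 FPKM in OE-NtispH and at 17.0, 12.9 and 12.0 FPKM in WT, with its lowest value in the library where WIPK was highest. That library, WT replicate 3, was the lowest in 11235 of all 40725 tested loci, more than any other.

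In the test between the groups 0 of these 21 loci passed, with 8 at an unadjusted p under 0.05, 15 above 0 and a median log2 change of 0.10. Of all tested loci 26.4% had an unadjusted p under 0.05 and 66.3% lay above 0, so 15 of 21 is near the background. The 8 of 21 at an unadjusted p under 0.05 are 38.1%, above the share of all loci and near the 35.0% of tested loci with a gene name. No set test was run. The smallest p belonged to NtMKP1 (LOC107780873), a phosphatase that acts on MAP kinases, with 12.1 ± 3.37 FPKM in OE-NtispH and 6.16 ± 0.78 FPKM in WT (SD, n = 3 each). Its log2 change was 0.84 with an SE of 0.19 (limma, adjusted p = 0.0591). The MAP kinase genes ntf4 (LOC107829388), a close relative of SIPK, MPK16 (LOC107791635) and MPK8 (LOC107781640) followed with log2 changes of 0.49, 0.46 and -0.28 (limma, adjusted p of 0.0693, 0.0899 and 0.134).

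In the list of calcium signalling and the oxidative burst, 2 of 12 loci were highest in WT replicate 3 and 6 in OE-NtispH replicate 1. Of all tested loci 13.1% were highest in WT replicate 3 and 29.2% in OE-NtispH replicate 1, the most frequent highest library. The test called 1.24% of all tested loci, and 28 of the 959 with a gene name, higher in the libraries labelled OE-NtispH. In this list only CDPK9 (LOC107815023), for a calcium-dependent protein kinase, passed the test, in the same direction. It had 23.9, 20.3 and 16.7 FPKM in OE-NtispH replicates 1, 2 and 3, against 11.0, 9.19 and 10.2 FPKM in WT replicates 1, 2 and 3. The log2 change was 0.93 with an SE of 0.15 (limma, adjusted p = 0.0347). The call ended with median-of-ratios scaling (limma, adjusted p = 0.0504) and without WT replicate 3 (limma, adjusted p = 0.114). Of the 6 fits that leave out 1 library it held in 2, those without OE-NtispH replicate 2 or 3, with adjusted p from 0.0065 to 0.169. CDPK1, CaMBP and CDPK14 came next, with log2 changes of 0.62, -0.52 and -0.58 (limma, adjusted p of 0.0886, 0.107 and 0.114). The median of the list was 0.27. Of its 12 loci 7 (58.3%) had an unadjusted p under 0.05 (limma), against 26.4% of all tested loci and 35.0% of those with a gene name. No set test was run.

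Among genes of wounding and jasmonate, 2 of 11 tested loci were highest in WT replicate 3, against 13.1% of all tested loci, 1 of them PsbR of photosystem II, which matched by letters only. The other was WIZZ (LOC107798622), a wound-induced WRKY gene named here after its values were seen. WIZZ was at 9.25, 7.38 and 8.78 FPKM in OE-NtispH replicates 1, 2 and 3, against 4.28, 9.29 and 57.1 FPKM in WT replicates 1, 2 and 3. It shared the highest and the lowest library with WIPK, and WT replicate 3 was 6.15 times the next library. That next library was WT replicate 2, but OE-NtispH replicate 1 was almost equal to it. WIZZ therefore clearly followed neither the order of the ACRE genes nor that of KED and WIPK. The allene oxide cyclase gene aoc (LOC107768393) was at 127.9, 117.2 and 8.16 FPKM in OE-NtispH replicates 1, 2 and 3, against 16.1, 15.7 and 22.1 FPKM in WT replicates 1, 2 and 3, so that the libraries high for KED after WT replicate 3 were the highest for aoc. AOS (LOC107783985), for allene oxide synthase, lay between 8.50 and 14.7 FPKM in OE-NtispH and between 11.1 and 14.1 FPKM in WT.

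The test called 1.24% of all tested loci, and 28 of the 959 with a gene name, higher in OE-NtispH. In that list 2 of 11 loci passed it. These were PI-Ia and PI-Ib, for proteinase inhibitors, both higher in OE-NtispH, with log2 changes of 1.93 ± 0.28 and 1.85 ± 0.27 (SE, n = 3 each; limma, adjusted p = 0.0343 for each). NtJAZ2 and OPR1 followed without passing, with log2 changes of 0.87 and 0.41 (limma, adjusted p of 0.0714 and 0.165). Both calls held only without OE-NtispH replicate 2 or 3 among the fits that leave out 1 library, and without WT replicate 3 neither did (limma, adjusted p of 0.0885 and 0.102 for PI-Ia and PI-Ib). The median log2 change of the 11 loci was 0.87, and 8 were above 0, where 66.3% of all tested loci were. An unadjusted p under 0.05 (limma) was found in 6 (54.5%), against 26.4% of all tested loci and 35.0% of those with a gene name. No set test was run. PI-Ia had its lowest FPKM, 127.2, in WT replicate 3, where KED and WIPK were highest. WT replicate 3 was also the most frequent lowest library over all tested loci, in 11235 of 40725.

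In the list of elicitor and hypersensitive response genes outside the ACRE family, 2 of 16 tested loci were highest in WT replicate 3, against 13.1% of all tested loci, or 1 of 13 without letter-only matches. That gene was CYP71D20 (LOC107759261), for the hydroxylase of capsidiol synthesis, at 15.8, 3.68 and 6.16 FPKM in OE-NtispH replicates 1, 2 and 3, against 3.67, 21.6 and 92.5 FPKM in WT replicates 1, 2 and 3. Its upper 3 libraries stood in the order of the ACRE genes. The phenylalanine ammonia-lyase gene palA (LOC107786762) was instead highest in OE-NtispH replicates 1 and 2, at 69.6 and 47.1 FPKM, and had 23.6 FPKM in WT replicate 3. Of the 16 loci 0 passed the test, with a median log2 change of 0.48, and 4 had an unadjusted p under 0.05, a share near the 26.4% of all tested loci. These 4 were PR-5dB, PR-5dA, glucanase and chitinase, with log2 changes of 1.13, 1.65, 1.16 and 0.43 (limma, adjusted p of 0.0571, 0.0757, 0.132 and 0.174), and all 4 were lowest in WT replicate 3. Genes higher in OE-NtispH are likely to have their lowest value in a library labelled WT. Over all 40725 tested loci WT replicate 3 was the most frequent lowest library, in 11235.

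Loci beside the 5 genes in the genome were few and most did not share the peak. In the RefSeq annotation ASM71507v2, used for gene names and for which loci neighbour each other, 15 of the 20 loci within 2 places of a member were in the table and 10 were tested. WT replicate 3 was the highest library in 2 of these 10, against 13.1% of all tested loci, and at least 2 times the next library in 1 of them, against 1.56%. Both lie beside ACRE111B. LOC107814502 was at 9.15, 12.2 and 10.1 FPKM in OE-NtispH replicates 1, 2 and 3, against 16.4, 16.8 and 17.3 FPKM in WT replicates 1, 2 and 3. LOC107803997, 2 places from ACRE111B, was at 0.064, 0 and 0.122 FPKM in OE-NtispH replicates 1, 2 and 3, against 0, 0.751 and 24.1 FPKM in WT replicates 1, 2 and 3. It reached the mean of 0.5 FPKM needed for testing only through WT replicate 3, so its place among the tested neighbours rests on that peak. The nearest tested neighbours of KED and WIPK, LOC107827771 and LOC107821858, lay between 11.1 and 14.8 FPKM and between 6.00 and 8.55 FPKM in all 6 libraries.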

How the data were processed

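The authors deposited 1 table of FPKM values, already scaled by transcript length and library size. The submitters' processing notes list fastp, Bowtie2, HISAT2, StringTie and RSEM. Versions, genome build, annotation and the handling of multiply mapped fragments were not given in the sources used here. Since tobacco holds 2 parental genomes, fragments of near-identical copies may be split between loci, which leaves the level of a single copy uncertain. Per the labels' protocols the library was made from poly(A) RNA, with dUTP in the second strand.

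Groups and replicate numbers came from the sample titles, and names from the RefSeq table of ASM71507v2, which held 49268 of 61780 gene numbers. The 40725 loci averaging 0.5 FPKM or more were taken to log2(FPKM + 1). The group comparison used limma 3.58.1 under R 4.3.3 (robust empirical Bayes with a trend, two-sided; Benjamini-Hochberg threshold of 0.05 over all tested loci). This scale understates the change of low genes. Tested on simulated data of 40725 genes, the fit found 51.2% of changes of log2 1 and 89.6% of log2 2 (5 draws of 200 genes), and 5.2% of its calls were false. The changes were placed only in genes averaging 5 FPKM or more, so these shares do not cover genes at lower levels. Noise was drawn independently for each gene and library, so no deviation shared by many genes of 1 library was simulated. Python 3.11.15, pandas 2.3.3, numpy 2.4.6 and matplotlib 3.10.9 were used. The members and lists were chosen with earlier results of these data known. Lists were matched by gene name. Named genes were the members, the 4 of smallest p in each list (or all of a small list), and the 3 nearest profiles of each member. The other ACRE genes were all named, and MEK2, MAPKK, SIPK, WIZZ, aoc, AOS, CYP71D20 and palA were named after their values were seen. Relative depth came from loci under 0.3 FPKM. Read counts being unknown, no counting interval is given.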

Additional observations from a re-analysis of the deposited data

How the results depend on the processing

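The library order of each of the 5 genes was the same in 25 of 25 comparisons with another pseudocount, filter or scaling. Another pseudocount or filter cannot change the order within a gene, so only median-of-ratios scaling and quantile normalization could have altered it. With a pseudocount of 0.1 the log2 range was 8.77 for ACRE111B and 8.50 for ACRE231, in place of 6.04 and 5.21. Leaving out 1 library in turn, the log2 difference of OE-NtispH minus WT ran from -3.15 to -0.31 for ACRE1, -3.57 to -0.55 for ACRE111B, -2.91 to -0.30 for ACRE231, -1.13 to 0.79 for KED and -0.42 to 0.53 for WIPK.

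The count of loci past limma's threshold was 737 (506 higher and 231 lower in OE-NtispH). It was 38 without a filter, 1375 at a mean of at least 2 FPKM, 330 with median-of-ratios scaling (136 higher, 194 lower), 595 with quantile normalization (235 and 360), 53 without trend and robust fitting, and 0 to 3103 when 1 library was left out: 0 without OE-NtispH replicate 1 or without WT replicate 1 (7221 and 10207 at an unadjusted p under 0.05), 1355 and 3103 without OE-NtispH replicates 2 and 3, and 1 and 17 without WT replicates 2 and 3. The replicate block gave 68. The count over the related lists was 3, against 0 without a filter, without trend and robust fitting and with the replicate block, 5 at a mean of at least 2 FPKM, and 0 to 16 with 1 library left out. The calls of PI-Ia, PI-Ib and CDPK9 ended without a filter (adjusted p of 0.0627, 0.0627 and 0.0630), without trend and robust fitting (0.0589, 0.0589 and 0.0602) and with the replicate block (0.0508, 0.0546 and 0.0615), and that of CDPK9 also with median-of-ratios scaling (0.0504). Same-numbered libraries did not deviate together (correlations of -0.13, 0.04 and -0.16 over loci), so the numbers pair nothing by this check. Differently numbered pairs ran from -0.09 to 0.19, highest for OE-NtispH replicate 3 with WT replicate 1. The median of all tested loci was 0.13, and 0.01 and 0.02 with median-of-ratios scaling and quantile normalization. The cause of these changes was not tested. Close paralogs and promoter motifs were not analysed here. The levels under 0.1 FPKM rest on an unknown and perhaps very small number of fragments.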
